A study of Mus musculus with 8 samples.

Results

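The EMILIN and multimerin genes were followed in outer medullary collecting ducts, the kidney tubules that carry urine through the outer medulla and hold principal and intercalated cells. The 5 genes were taken by their symbols, Emilin1, Emilin2, Emilin3, Mmrn1 and Mmrn2, and all 5 were found among the 55291 gene symbols of both deposited tables. The family was selected on the measured difference of Emilin2 between the diets in these same libraries. Its difference is therefore described and not tested, and the other 4 genes were added as its relatives.

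RNA was sequenced from ducts of C57BL/6J mice, a common inbred strain, that had eaten a high-salt (3%) or a normal-salt (0.3%) diet for 3 days. Each diet had 4 libraries, and each library held 100 to 120 tubules that had been dissected from the enzyme-treated kidneys of 1 mouse. Libraries are named by diet and by the number in their column name, which does not match the numbering of the sample titles. Library totals were 69.2 to 87.7 M estimated counts under high salt and 64.8 to 94.1 M under normal salt.

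EMILINs and multimerins are secreted glycoproteins of the extracellular matrix. They share a cysteine-rich EMI domain near the N terminus and long coiled-coil stretches through which they assemble into large multimers, and all but Emilin3 end in a globular C1q-like (gC1q) domain. Emilin1 lies on elastic fibres, is bound by integrins and holds back the processing of the TGF-beta precursor, and mice that lack it have high blood pressure. Emilin2 is known from heart, bone marrow and other tissues and can engage death receptors in human cells. Mmrn1 is stored in platelets and binds coagulation factor V, and Mmrn2 is a matrix protein of blood vessel endothelium that binds the receptors Clec14a and Cd93.

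The ducts carried the markers of their segment. The water channel Aqp2 of principal cells averaged 15690 ± 1618 CPM (counts scaled to a library total of 1 M) under high salt and 9979 ± 2120 CPM under normal salt, and the anion exchanger Slc4a1 of intercalated cells 2722 ± 443 CPM under high salt and 2709 ± 525 CPM under normal salt (SD, n = 4 each). The 10 markers of the thick ascending limb, a tubule segment that runs beside the ducts, summed to 99.2 to 2761 CPM under high salt and 605 to 2153 CPM under normal salt, and 0 of them were at 0 in any library. The error after each mean is the SD of its 4 libraries.

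In GENCODE M21 on mm10 Emilin2 spans bases 71252172 to 71311978 of chromosome 17, minus strand, and has 11 annotated transcripts, of which 7 are protein-coding. RefSeq promoter windows were matched for 3 of the 5 genes (Emilin1, Emilin2 and Mmrn1). The 2 Emilin2 windows are shown because this is the member whose level differed and because values per gene cannot tell which of its start sites was used. Each window holds 250 bases before to 50 bases after a start site in GRCm38.p6, at 71311556 and 71311011, and capitals mark the motif matches named after the sequences.
Emilin2, start site 71311556, chr17:71311507-71311806, minus strand: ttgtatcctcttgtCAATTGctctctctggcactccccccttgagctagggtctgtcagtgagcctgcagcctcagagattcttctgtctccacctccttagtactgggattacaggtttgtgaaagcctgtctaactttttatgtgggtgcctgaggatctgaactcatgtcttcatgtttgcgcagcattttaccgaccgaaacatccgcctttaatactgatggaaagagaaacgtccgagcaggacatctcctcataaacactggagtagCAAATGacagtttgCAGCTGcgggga
Emilin2, start site 71311011, chr17:71310962-71311261, minus strand: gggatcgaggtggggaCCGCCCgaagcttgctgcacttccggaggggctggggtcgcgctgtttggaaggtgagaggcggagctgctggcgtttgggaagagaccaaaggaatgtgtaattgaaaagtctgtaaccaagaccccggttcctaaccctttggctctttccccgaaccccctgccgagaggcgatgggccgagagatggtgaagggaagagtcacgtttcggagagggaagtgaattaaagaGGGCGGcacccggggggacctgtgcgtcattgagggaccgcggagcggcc

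The first window held 3 matches to the E-box CANNTG, the site of helix-loop-helix factors, and the second held none. The second held 2 matches to the GC box GGGCGG on either strand, and the first held none. Of 32851 promoter windows of this length, 72.3% held an E-box and 35.7% a GC box. Neither window held the TATA box TATAAA or the steroid receptor half-site AGAACA, which 13.6% and 19.0% of windows held. The windows also differed in composition, with 48.3% G and C and 7 CG steps in the first, 61.0% and 21 in the second, and medians of 52.7% and 7 over the windows of the table.

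Emilin2 was measured at 83.4, 78.0, 102 and 48.3 CPM in high-salt libraries 2, 3, 4 and 6, against 18.2, 29.8, 31.7 and 22.5 CPM in normal-salt libraries 1, 2, 3 and 6. The diets did not overlap, and high-salt library 6 lay lowest of its diet and nearest to the normal-salt values. The means were 78.0 ± 22.3 CPM under high salt and 25.5 ± 6.30 CPM under normal salt (n = 4 each), a ratio of 3.05. On the log2(CPM + 1) scale the difference was 1.56 (SE 0.23). Of the 13401 genes tested, 14, Emilin2 included, were higher under high salt by at least that much. Genes lower under high salt were not part of this count, whatever the size of their difference. Of all genes tested, the diets did not overlap in 6.4% (3.66% higher and 2.75% lower under high salt), and limma called 11 (0.0821%) at an adjusted p under 0.05, 0.0298% higher and 0.0522% lower. The number called was 0 without high-salt library 4 (908 at an unadjusted p under 0.05) or without normal-salt library 3 (1224), and 49 without normal-salt library 1. Of the 3 members that passed the filter of at least 1 CPM in at least 4 libraries, Emilin2 alone was without overlap. The family was chosen on that difference, so nothing is read from this count. Estimated counts behind these values were 3341 to 7539 per library under high salt and 1180 to 2985 under normal salt.

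On the scale that takes transcript length into account, TPM (transcripts scaled to a total of 1 M), the 5 genes kept 1 order in the means of both diets. Emilin2 averaged 33.1 ± 11.6 TPM under high salt and 11.7 ± 2.51 TPM under normal salt, above 65.5% of the genes tested under high salt and 38.1% under normal salt. Mmrn2 followed at 4.80 ± 0.769 TPM under high salt and 4.27 ± 1.37 TPM under normal salt, and Emilin1 at 1.13 ± 0.497 TPM under high salt and 1.22 ± 0.390 TPM under normal salt. Emilin3 was at or below 0.073 TPM in every library, and Mmrn1 was listed at 0 throughout.

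Within each diet the libraries of Emilin2 did not overlap those of Mmrn2 (19.2 to 47.1 against 3.97 to 5.81 TPM under high salt, 8.61 to 14.7 against 2.47 to 5.71 TPM under normal salt). Mmrn2 in turn did not overlap Emilin1, which ranged from 0.717 to 1.77 TPM under high salt and from 0.778 to 1.56 TPM under normal salt. Emilin3 and Mmrn1, the last neighbours in the order, shared a listed value of 0 in 3 normal-salt libraries. Summed over the 5 genes, the family stood at 39.1 ± 11.5 TPM under high salt and 17.2 ± 3.61 TPM under normal salt. Emilin2 made up 83.6% ± 5.28 of that sum under high salt and 68.3% ± 4.88 under normal salt.

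**Figure D1:**
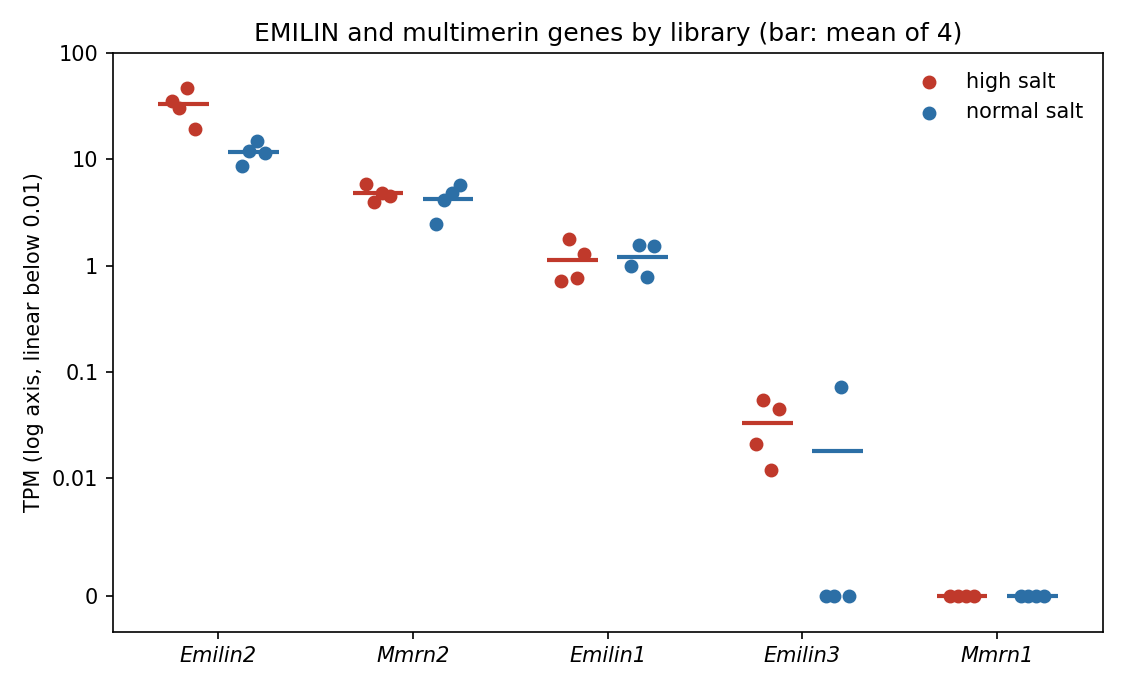
TPM of each gene in each library on a log axis that is linear below 0.01, with the 4 high-salt libraries in red left of the 4 normal-salt libraries in blue and a bar at each mean. The high-salt values of Emilin2 (19.2 to 47.1) lie above its normal-salt values (8.61 to 14.7), the diets overlap in Mmrn2, Emilin1 and Emilin3, and Mmrn1 is at 0 in all 8 libraries.

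Emilin2 was set beside Umod, the uromodulin of the thick ascending limb, to see whether its level moved with tubule carried over from that segment. Umod was measured at 46.5, 35.7, 248 and 1695 CPM in high-salt libraries 2, 3, 4 and 6, against 1368, 537, 355 and 864 CPM in normal-salt libraries 1, 2, 3 and 6. The diets overlapped in Umod, and high-salt library 6, the lowest of its diet in Emilin2, was the highest of all 8 libraries in Umod. Among the normal-salt libraries the order of Emilin2 was the reverse of the order of Umod. Under high salt it was not, since library 4 had the most Emilin2 and the second-highest Umod.

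Some libraries of different diets can be set side by side at closer amounts of Umod; these pairs were picked after their values were seen and no cause is read from them. High-salt library 6 and normal-salt library 1, the 2 with the most Umod, had 48.3 CPM (high salt) and 18.2 CPM (normal salt) of Emilin2. High-salt library 4 had 102 CPM of Emilin2 at 248 CPM of Umod, and normal-salt library 3 had 31.7 CPM of Emilin2 at 355 CPM of Umod. With log2(CPM + 1) of Umod as a covariate the Emilin2 difference was 1.26 (SE 0.22), and with the mean of the 10 thick ascending limb markers it was 1.29 (SE 0.19), against 1.56 without either. Without high-salt library 6 and normal-salt library 1 it was 1.62 (SE 0.15). On the log2(CPM + 1) scale the means of the 10 markers were all lower under high salt, with a median difference of -0.83, although mean CPM was higher under high salt for the homeobox genes Irx1 (6.38 CPM under high salt, 5.58 CPM under normal salt) and Irx2 (3.14 CPM under high salt, 2.82 CPM under normal salt). None of them passed limma's test, nor an unadjusted p of 0.05.

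**Figure D2:**
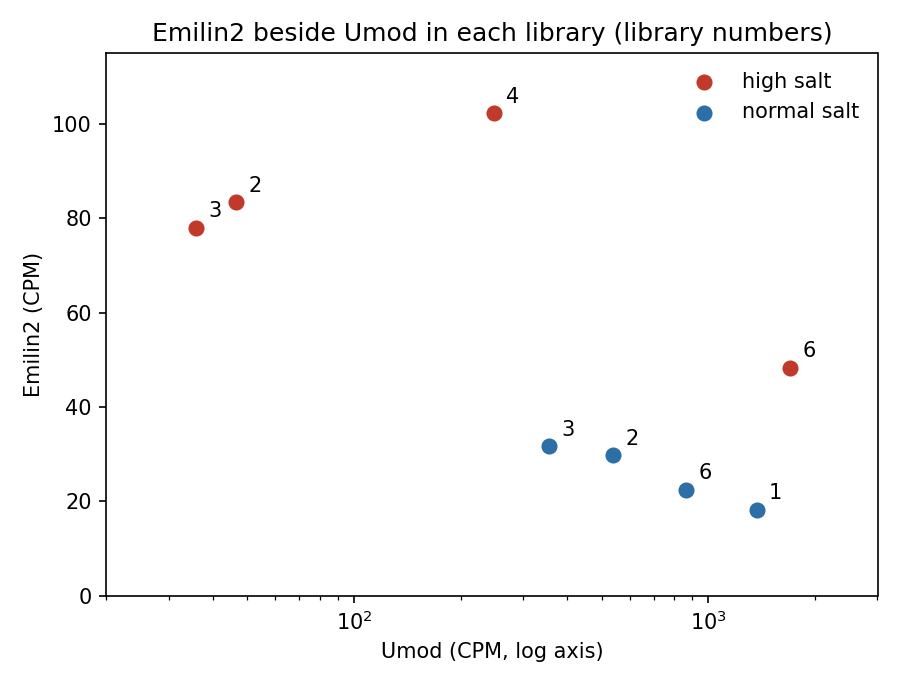
Emilin2 in CPM against Umod in CPM on a log axis, 1 point per library labelled with its number, high salt in red and normal salt in blue. Every high-salt point (48.3 to 102 CPM of Emilin2) lies above every normal-salt point (18.2 to 31.7 CPM), while Umod overlaps between the diets.

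Other cell types were looked at in the same way. Markers of the distal convoluted and connecting tubules summed to 208 to 400 CPM under high salt and 165 to 277 CPM under normal salt, and the 4 of 6 that passed the filter had higher means, though 0 passed limma's test and 3 had an unadjusted p under 0.05, which 5.95% of all genes reached in that direction. With their mean as a covariate the Emilin2 difference was 1.93 (SE 0.38). Principal cell markers summed to 24270 to 29500 CPM under high salt and 16310 to 21390 CPM under normal salt and did not overlap. Aqp2 and the water channel Aqp3 were the 2 of 7 markers higher without overlap of their own, as were 3.66% of all genes (adjusted p = 0.287 and 0.162 by limma). Means were higher under high salt in 4 of the 7 and lower in 3, with a median log2 difference of 0.01. With the principal cell mean as a covariate the Emilin2 difference was 1.47 (SE 0.48). That mean itself did not overlap between the diets (10.57 to 10.69 under high salt, 10.38 to 10.51 under normal salt, log2 scale). The fit therefore cannot tell it apart from diet. Of the 8 intercalated cell markers 3 were lower under high salt without overlap, as were 2.75% of all genes. An unadjusted p under 0.05 was reached by 2 of the 8, and by 4.37% of all genes in that direction, and 0 of the 8 passed limma's test. Markers of the proximal tubule (5.98 to 109 CPM under high salt, 2.54 to 87.8 CPM under normal salt) and of the thin limbs (194 to 414 CPM under high salt, 124 to 351 CPM under normal salt) overlapped, and their part in the level of Emilin2 was not tested. Urothelium and inner medullary duct markers, led by Aqp4, summed to 1003 to 1752 CPM under high salt and 870 to 1420 CPM under normal salt. The diets overlapped, but within each diet this sum ordered the libraries as Emilin2 did. Of its 2 tested genes Upk1a was higher under high salt without overlap, as were 3.66% of all genes (adjusted p = 0.216 by limma). The part of this list in the level of Emilin2 was not tested either. In tissue samples of this kind a change in the number of cells of a type and a change in RNA per cell cannot be told apart.

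**Figure D3:**
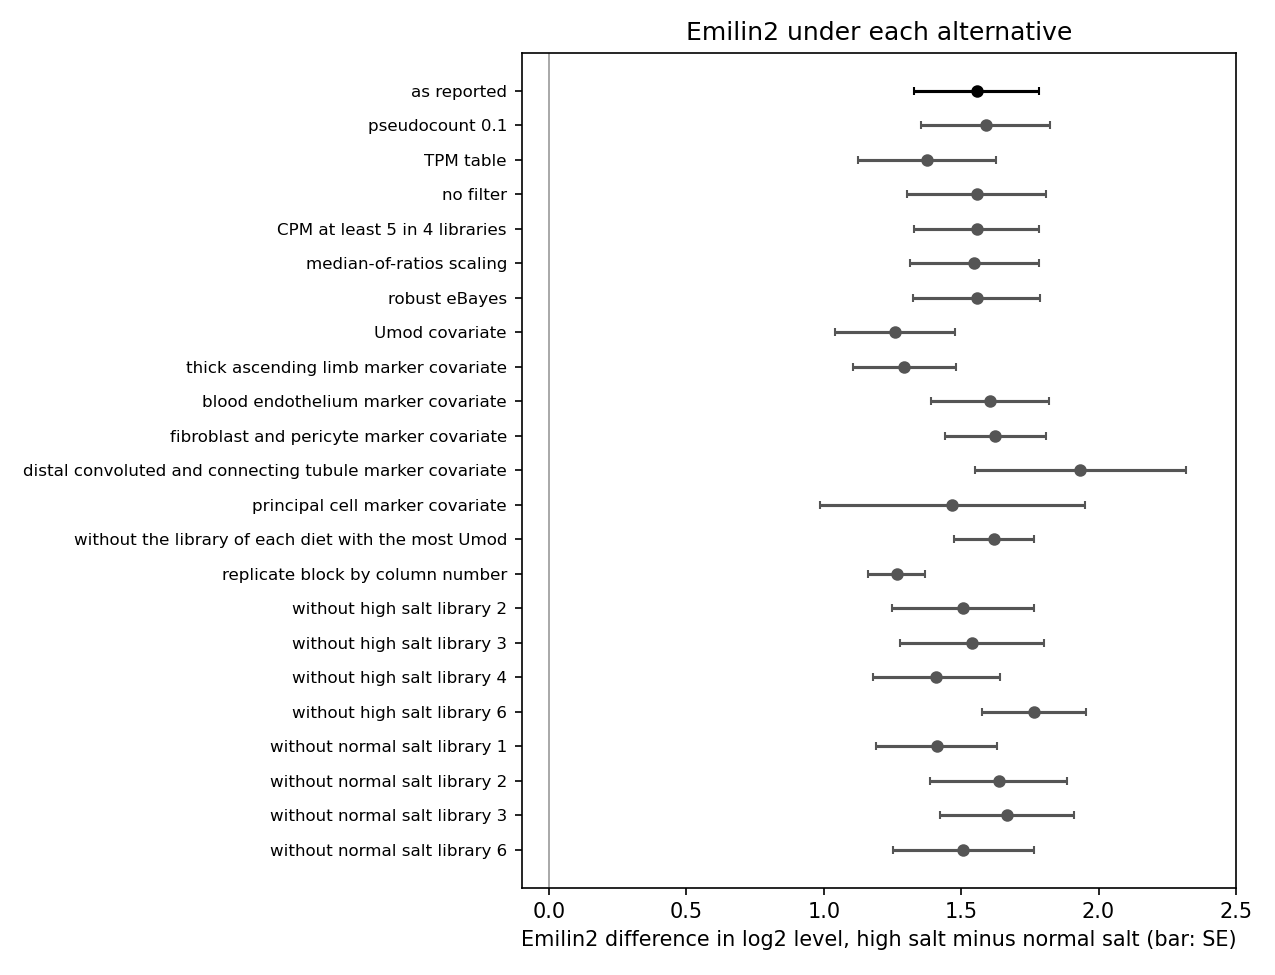
Difference of Emilin2 in log2 level, high salt minus normal salt, as reported and under each alternative, with bars of 1 SE. The values run from 1.26 with Umod as a covariate to 1.93 with the distal convoluted and connecting tubule markers as a covariate, and leaving out single libraries gave 1.41 to 1.77. The diets do not overlap in Emilin2, so its direction was fixed when single libraries were left out.

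The genes whose pattern over the 8 libraries lay nearest to that of Emilin2 were found by the mean absolute difference in log2(CPM + 1) after each gene was centred on its own mean. The nearest of 12149 genes was Calml3, a calmodulin-like protein, at 0.23, followed by Il17rd, a feedback inhibitor of ERK signalling, at 0.24 and the calcium channel Trpv6 at 0.24. Cltrn, the collectrin that supports amino acid transporters, lay at 0.25 and the ring finger protein Rnf24 at 0.25, where the median gene lay at 0.78. Trpv6 averaged 96.8 ± 37.7 CPM under high salt and 29.4 ± 5.22 CPM under normal salt, Il17rd 8.60 ± 2.53 CPM under high salt and 2.55 ± 0.758 CPM under normal salt, and Calml3 19.7 ± 6.68 CPM under high salt and 8.78 ± 4.46 CPM under normal salt. These genes were picked for their likeness to Emilin2, so their own diet difference is no separate result.

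Mmrn2, the endothelial member, was measured at 14.5, 10.05, 12.4 and 11.5 CPM in high-salt libraries 2, 3, 4 and 6, against 7.10, 10.2, 12.003 and 13.9 CPM in normal-salt libraries 1, 2, 3 and 6. The diets overlapped, and normal-salt library 1 was the lowest of all 8. Its difference was 0.18 on the log2(CPM + 1) scale (SE 0.19, 95% interval -0.24 to 0.60), and it did not pass limma's test over all genes (adjusted p = 0.802). Mmrn2 spans bases 34375465 to 34404287 of chromosome 14, plus strand, with 2 annotated transcripts, both protein-coding.

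Endothelial markers were present in every library. The 11 blood endothelium markers, led by Plvap, a diaphragm protein of fenestrated vessels, summed to 286, 223, 359 and 288 CPM in high-salt libraries 2, 3, 4 and 6 and to 238, 322, 325 and 363 CPM in normal-salt libraries 1, 2, 3 and 6. Under normal salt the order of the libraries was the same in Mmrn2 as in this sum. Under high salt library 3 was lowest in both, but library 2 had the most Mmrn2 and library 4 the highest sum. With the mean of these markers as a covariate the Mmrn2 difference was 0.25 (adjusted p = 0.471 by limma). The genes patterned nearest to Mmrn2 were the helix-loop-helix factor Sim1 at 0.04, the microtubule adaptor Hook3 at 0.07 and the zinc finger protein Zbtb38 at 0.08, where the median gene lay at 0.26. Sim1 was measured at 133 ± 16.7 CPM under high salt and 121 ± 34.9 CPM under normal salt.

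Emilin1, the elastic fibre member, was measured at 1.81, 4.52, 1.99 and 3.32 CPM in high-salt libraries 2, 3, 4 and 6, against 2.73, 2.33, 1.98 and 2.80 CPM in normal-salt libraries 1, 2, 3 and 6. The high-salt libraries spanned the normal-salt range on both sides. Its log2 difference was 0.13 (SE 0.23, 95% interval -0.38 to 0.64), and it did not pass limma's test over all genes (adjusted p = 0.894). The direction was not stable: it was -0.07 on log2(TPM + 1), -0.06 without high-salt library 3 and -0.24 with the distal convoluted and connecting tubule markers as a covariate. Emilin1 spans bases 30913402 to 30921277 of chromosome 5, plus strand.

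The TPM and CPM values of Emilin1 did not keep a constant ratio. TPM per CPM was 0.396, 0.392, 0.384 and 0.386 in high-salt libraries 2, 3, 4 and 6, against 0.366, 0.670, 0.394 and 0.545 in normal-salt libraries 1, 2, 3 and 6. Normal-salt libraries 2 and 6 stood above the other 6 libraries. TPM divides by length, so within a library a higher ratio goes with a shorter effective length. Relative to each library's median gene, the highest ratio of Emilin1 was 1.70 times its lowest, a spread at or above that of 93.4% of 12307 genes. The spread was 1.41 times for Emilin2 and 1.03 times for Mmrn2, with a median of 1.14 times. Emilin1 was low in level, above 4.8% of the genes tested in mean TPM under high salt and 6.2% under normal salt. Its spread was not compared with that of genes of like level.

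Fibroblast and pericyte markers, 11 in all and led by the collagen chain Col1a2, summed to 105, 195, 85.4 and 170 CPM in high-salt libraries 2, 3, 4 and 6 and to 323, 91.6, 93.9 and 74.9 CPM in normal-salt libraries 1, 2, 3 and 6. High-salt libraries 3 and 6 were the higher of their diet both in Emilin1 and in this sum. Normal-salt library 1 had the highest sum of all 8, but Emilin1 in it, at 2.73 CPM, was below normal-salt library 6. With the mean of these markers as a covariate the Emilin1 difference was 0.09 (adjusted p = 0.864 by limma). The kinase Map2k6 was patterned nearest to Emilin1, at 0.05, followed by the nucleoside transporter Slc29a2 and the sedoheptulose kinase Shpk at 0.11 each, where the median gene lay at 0.30.

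**Figure D4:**
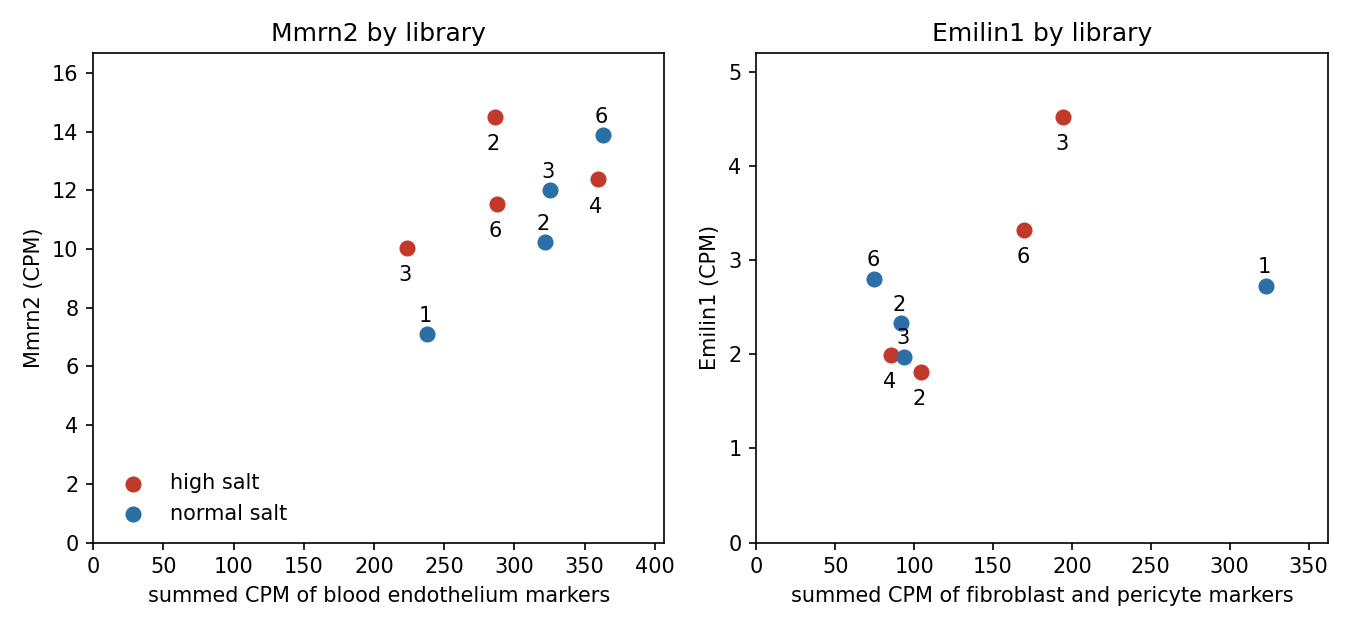
Left, Mmrn2 in CPM against the summed CPM of 11 blood endothelium markers, and right, Emilin1 in CPM against the summed CPM of 11 fibroblast and pericyte markers, 1 point per library labelled with its number, high salt in red and normal salt in blue. Normal-salt library 1 is lowest in Mmrn2 (7.10 CPM) and highest in the fibroblast and pericyte sum (323 CPM), and the diets overlap in both panels.

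Emilin3, which lacks the gC1q domain, was near the limit of detection. It had 4, 9, 2 and 7 estimated counts in high-salt libraries 2, 3, 4 and 6, against 0, 0, 15 and 0 in normal-salt libraries 1, 2, 3 and 6. It was above 0 in all 4 high-salt libraries and in 1 normal-salt library, but that library had the highest value of all 8, at 0.159 CPM. The mean was 0.0734 ± 0.0441 CPM under high salt and 0.0398 ± 0.0797 CPM under normal salt, and the difference was within the spread of the libraries (two-sided exact permutation p = 0.486 over 70 assignments, where the smallest possible is 0.0286). It was below the filter of the test over all genes. Emilin3 spans bases 160906437 to 160912328 of chromosome 2, minus strand.

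Mmrn1, the platelet member, was listed at 0 in all 8 libraries. A count of 0 allows up to 3 counts per library, which is 0.0342 to 0.0434 CPM under high salt and 0.0319 to 0.0463 CPM under normal salt, so a lower level was not detectable at this depth. Such limits cover counting error only. Of 20 genes that every cell uses, 0 were at 0 in any library, which does not bear on a gene of low level. Only 20416 to 22035 of the 55291 symbols were above 0 in a library, so a listed 0 was common. Whether annotation or counting had a part in the 0 of Mmrn1 was not tested. Mmrn1 is also known from lymphatic endothelium, whose 5 markers summed to 10.7 to 16.6 CPM under high salt and 13.7 to 21.3 CPM under normal salt. Among these, 3 passed the filter. Pdpn had 5.28 ± 2.70 CPM under high salt and 7.885 ± 2.81 CPM under normal salt. Flt4 had 4.47 ± 0.917 CPM under high salt and 4.47 ± 1.25 CPM under normal salt. Prox1 had 3.00 ± 2.32 CPM under high salt and 4.29 ± 0.482 CPM under normal salt. Lyve1, the hyaluronan receptor of lymphatic vessels, was under the filter at 0.163 ± 0.136 CPM under high salt and 0.573 ± 0.977 CPM under normal salt, as was Ccl21a. Of the 8 platelet and megakaryocyte markers, the platelet integrin Itga2b alone passed the filter, at 9.39 ± 1.97 CPM under high salt and 7.55 ± 0.927 CPM under normal salt. Mmrn1 spans bases 60924976 to 60989378 of chromosome 6, plus strand.

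The integrins and other partners known for these proteins held 15 genes, of which 11 were tested, and limma called 0 in either direction. At an unadjusted p under 0.05, which 10.3% of all genes reached (5.95% higher and 4.37% lower under high salt), there was 1, Itgb1. This beta chain of the integrins that bind Emilin1 was measured at 406 ± 14.0 CPM under high salt and 356 ± 26.7 CPM under normal salt (log2 difference 0.19, adjusted p = 0.48 by limma) without overlap, as were 3.66% of all genes in that direction. The alpha chains that pair with it to bind Emilin1 were low, with Itga9 at 2.51 ± 0.664 CPM under high salt and 2.06 ± 0.949 CPM under normal salt and Itga4 under the filter at 0.285 ± 0.0800 CPM under high salt and 0.330 ± 0.243 CPM under normal salt. Itgav, an alpha chain that can also pair with Itgb1, had 230 ± 22.5 CPM under high salt and 238 ± 59.1 CPM under normal salt (-0.01, adjusted p = 0.986). The median log2 difference of the tested partners was 0.09, where that of all genes tested was 0.01.

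The receptors that bind Mmrn2 had differences of opposite sign that did not pass limma's test. Clec14a, an endothelial lectin-like receptor, had 4.27 ± 1.82 CPM under high salt and 5.58 ± 0.819 CPM under normal salt (log2 difference -0.38, adjusted p = 0.641 by limma), and Cd93 had 9.75 ± 2.63 CPM under high salt and 8.12 ± 2.17 CPM under normal salt (0.24, adjusted p = 0.768). Tnfrsf10b, the mouse death receptor related to those that human Emilin2 engages, had 4.85 ± 1.10 CPM under high salt and 3.34 ± 0.778 CPM under normal salt (0.43, adjusted p = 0.489). Furin, the protease that cleaves the TGF-beta precursor, had 197 ± 18.8 CPM under high salt and 197 ± 27.2 CPM under normal salt (0.00, adjusted p = 0.998). Coagulation factor V, the partner of Mmrn1, was under the filter at 0.136 ± 0.130 CPM under high salt and 0.130 ± 0.120 CPM under normal salt (gene F5).

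The elastic fibre and microfibril genes held 19 genes, of which 13 were tested, and limma called 0 in either direction. Means of log2(CPM + 1) were higher under high salt in 6 and lower in 7, and mean CPM was higher in 4 and lower in 9. The median log2 difference was -0.02, and it was 0.24 without normal-salt library 1 and 0.10 without high-salt library 2. Ltbp4, a latent TGF-beta binding protein of elastic fibres, alone had an unadjusted p under 0.05, which 4.37% of all genes reached in that direction. It had 10.6 ± 2.06 CPM under high salt and 14.7 ± 2.10 CPM under normal salt (log2 difference -0.44, adjusted p = 0.349 by limma). Eln, elastin itself, had 5.50 ± 1.20 CPM under high salt and 4.17 ± 1.56 CPM under normal salt (0.36, adjusted p = 0.638), and the fibrillin Fbn2 had 3.42 ± 1.56 CPM under high salt and 1.85 ± 1.84 CPM under normal salt (0.78, adjusted p = 0.569). The fibulin Efemp1 was the most abundant of the list in CPM, at 167 ± 4.75 under high salt and 194 ± 28.2 under normal salt (-0.21, adjusted p = 0.554).

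Genes that share a domain with the family were counted in the same way. Of 10 other genes with an EMI domain 5 were tested and limma called 0, also at an unadjusted p under 0.05, with a median log2 difference of 0.12 that ran from -0.02 without normal-salt library 6 to 0.15 without high-salt library 4. The collagen Col26a1 was the most abundant, at 135 ± 20.01 CPM under high salt and 123 ± 10.7 CPM under normal salt (0.12, adjusted p = 0.76). Pear1, a platelet and endothelial receptor, had 53.7 ± 12.1 CPM under high salt and 50.5 ± 19.8 CPM under normal salt (0.15, adjusted p = 0.889), and the endothelial factor Egfl7 had 9.87 ± 2.10 CPM under high salt and 11.6 ± 1.68 CPM under normal salt (-0.23, adjusted p = 0.706). Tgfbi, a matrix protein, had 9.99 ± 4.59 CPM under high salt and 10.9 ± 12.6 CPM under normal salt (0.28, adjusted p = 0.904), so its mean CPM and its log2 difference had opposite directions.

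Of 26 other genes with a gC1q domain 10 were tested and limma called 0, although 9 of the 10 had lower means of log2(CPM + 1) under high salt. Of all genes tested 52.8% had a higher mean. The median log2 difference was -0.30. Normal-salt library 1 stood above the others in the sum of the 26 genes, which was 45.4 to 50.3 CPM under high salt and 96.5, 49.2, 56.4 and 54.2 CPM in normal-salt libraries 1, 2, 3 and 6. Without that library 8 of the 10 had lower means and the median was -0.18. C1ql1, a secreted C1q-like protein best known from synapses, was measured at 1.10 ± 0.570 CPM under high salt and 3.09 ± 0.972 CPM under normal salt without overlap (log2 difference -0.98, adjusted p = 0.198 by limma), and it alone of these 10 had an unadjusted p under 0.05. Of all genes, 2.75% were lower without overlap and 4.37% were lower at that p. C1qtnf4 had 16.4 ± 1.36 CPM under high salt and 21.4 ± 6.00 CPM under normal salt (-0.33, adjusted p = 0.557), and C1qtnf6 had 0.983 ± 0.232 CPM under high salt and 1.56 ± 0.538 CPM under normal salt (-0.35, adjusted p = 0.624). The complement subunit C1qb of macrophages had 1.04 ± 0.973 CPM under high salt and 2.71 ± 2.65 CPM under normal salt (-0.76, adjusted p = 0.6). Normal-salt library 1 held 6.66 CPM of C1qb, and the other 3 averaged 1.39 ± 0.351 CPM. The 9 macrophage and neutrophil markers summed to 29.4 to 32.3 CPM under high salt and 22.9 to 44.9 CPM under normal salt, where library 1 was again the highest. Their directions were mixed, with 2 of the 4 tested markers higher in mean under high salt and 2 lower. Ptprc, the most abundant, had 14.05 ± 2.18 CPM under high salt and 9.42 ± 1.06 CPM under normal salt (adjusted p = 0.184 by limma). It was higher without overlap, as were 3.66% of all genes. The part of macrophage RNA in the C1q genes was not tested.

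**Figure D5:**
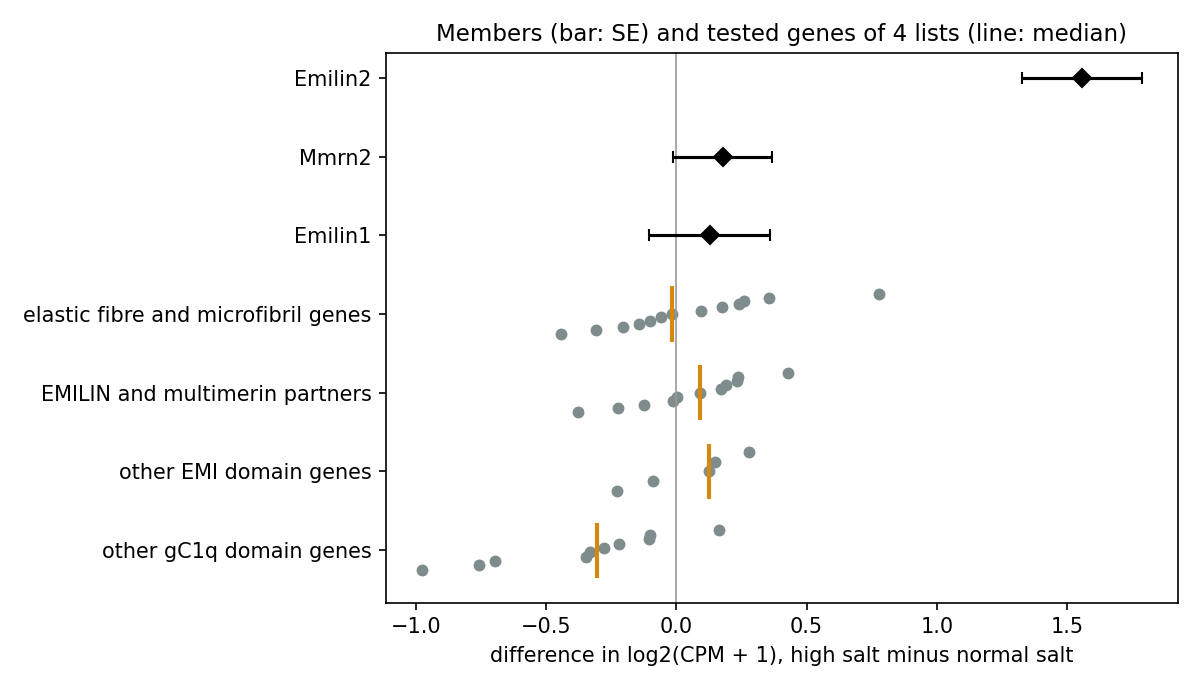
Difference in log2(CPM + 1), high salt minus normal salt, for the 3 members that passed the filter (diamonds with bars of 1 SE) and for the tested genes of 4 lists (grey points, 1 per gene, with an orange line at each median). Emilin2 lies at 1.56, Mmrn2 at 0.18 and Emilin1 at 0.13, and the list medians run from -0.30 for genes with a gC1q domain to 0.12 for genes with an EMI domain.

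The genes next to the members on the chromosome were also read out. Lpin2, a phosphatidate phosphatase, ends 2355 bases from the 3′ end of Emilin2 on the opposite strand and averaged 72.0 ± 7.65 CPM under high salt and 48.8 ± 8.99 CPM under normal salt. Its libraries ran from 65.4 to 82.0 CPM under high salt and from 36.3 to 57.1 CPM under normal salt without overlap, as did 3.66% of all genes in that direction. Lpin2 did not pass limma's test (log2 difference 0.56, SE 0.14, adjusted p = 0.163). Smchd1, on the other side of Emilin2, had 62.1 ± 5.32 CPM under high salt and 57.9 ± 13.7 CPM under normal salt (0.13, adjusted p = 0.834). Gm26561, a lincRNA gene on the opposite strand, overlaps Emilin2 and is not analysed here. The strand setting of the counting is not known from the labels, so reads of the 2 may not have been told apart.

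Of the neighbours of the other members, those that were tested did not pass limma's test. Khk, ketohexokinase, begins 154 bases past Emilin1 on the same strand and had 14.5 ± 2.60 CPM under high salt and 16.1 ± 1.85 CPM under normal salt (log2 difference -0.16, adjusted p = 0.766), and Ost4 on the other side had 52.0 ± 3.58 CPM under high salt and 56.8 ± 10.5 CPM under normal salt. Bmpr1a, a BMP receptor next to Mmrn2, had 162 ± 8.07 CPM under high salt and 161 ± 26.7 CPM under normal salt (0.02, adjusted p = 0.971), and Sncg on the other side was under the filter. Lpin3, beside Emilin3, had 16.6 ± 2.49 CPM under high salt and 16.6 ± 1.64 CPM under normal salt and Chd6 had 132 ± 9.39 CPM under high salt and 129 ± 32.6 CPM under normal salt. Ccser1, beside Mmrn1, had 39.9 ± 6.27 CPM under high salt and 38.7 ± 6.12 CPM under normal salt.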

How the data were processed

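Duct RNA of 8 mice, 4 per diet, was measured by sequencing of libraries from a stranded mRNA kit. The tools FastQC and Trimmomatic and the build mm10 are named, without their roles, per the submitters' processing notes. For the aligner, counter and strand setting, none is named in those notes. The authors deposited CPM on a log2 scale with a floor of -5.29 in every library, and TPM rounded to 3 decimals. Values were taken off the log scale, freed of the floor and scaled to 1 M per library. The most frequent CPM above 0 was taken as 1 count, and 84.7% to 85.9% of values above 0 were then whole within 0.005 counts. Because these are estimated counts, no count model was used.

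Genes with at least 1 CPM in at least 4 libraries (13401) went into limma 3.58.1 (R 4.3.3) as log2(CPM + 1), with a mean-variance trend, two-sided, adjusted by Benjamini-Hochberg. Fold changes on this scale understate low genes. Calls are at an adjusted p under 0.05. The procedure was also run on simulated counts, drawn independently for each library with the same dispersion for all genes. That simulation held no carry-over between segments, so it does not cover such differences between these libraries. Emilin3, under the filter, had an exact permutation test, and Mmrn1, at 0 throughout, had none. Members, lists and marker genes were chosen with earlier results of these data known. Named genes were the members, the genes nearest in pattern, up to 4 tested genes per list by p, all called list genes, up to 3 markers per list by level, and the nearest protein-coding neighbours; Furin, F5, Itga9, Itga4, Itgav, Irx1, Irx2 and Lyve1 were added after their values were seen. Positions are from GENCODE M21, in which 96.4% of symbols were found. The alternatives varied the pseudocount, filter, table, scaling, moderation, covariates and libraries.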

Additional observations from a re-analysis of the deposited data

Results flagged for a closer look

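Of 48 groups of 4 libraries examined for a value far from the other 3, 7 were past Dixon's critical value. Chance flags about 1 in 20 of independent groups, but these were not independent, so the 7 cannot be set against that rate. Emilin3 and Umod were each flagged in both CPM and TPM, and Umod is 1 of the thick ascending limb markers. A group with 3 libraries at 0 and 1 above is always flagged, and the groups of Mmrn1, at 0 throughout, cannot be. In the normal-salt group of Emilin3, library 3 stood apart at 0.159 CPM (0.073 TPM) from 3 libraries at 0. In the high-salt group of Umod, library 6 stood apart at 1695 CPM (1066 TPM), and the same library stood apart in the sum of the thick ascending limb markers at 2761 CPM. In the normal-salt group library 1 stood apart in the sum of fibroblast and pericyte markers at 323.2 CPM and in the sum of macrophage and neutrophil markers at 44.9 CPM. No member other than Emilin3 had such a library in CPM or TPM.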

How the results depend on the processing

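The difference of Emilin2 moved by less than its spread between libraries (0.41 on the log2 scale) under each of the 22 alternatives, from 1.26 to 1.93, and was 1.41 to 1.77 with single libraries left out. The principal cell mean did not overlap between the diets, so the alternative with it cannot tell it apart from diet. Mmrn2 stayed uncalled, at 0.01 to 0.30 with single libraries left out (0.01 without normal-salt library 1, and 0.71 with the principal cell mean as a covariate). Emilin3 was at 0.03 to 0.10 with single libraries left out, against 0.05 as reported. It stayed uncalled at 0.41 with a pseudocount of 0.1 and at 0.02 on TPM. Without the library of each diet with the most Umod it was at 0.02. Emilin3 was at 0.10 without normal-salt library 3, the only library of its diet above 0 (exact permutation p = 0.0571). That is the smallest p this test allows with a single library left out, so no such run could have called Emilin3. Without the library of each diet with the most Umod, too few libraries were left for a permutation p under 0.05. Emilin1 stayed uncalled but changed direction on TPM (-0.0656) and with the distal convoluted and connecting tubule markers as a covariate (-0.24), and was -0.0552 to 0.269 with single libraries left out; the cause was not tested. Emilin1 gave no value with a filter of 5 CPM, nor Emilin3 with covariates, robust moderation or that filter. The count of genes called by limma, 11 of 13401, was 5 on TPM, 22 with robust moderation, 40 with the thick ascending limb mean, 80 with the endothelial mean and 292 with the fibroblast mean as a covariate. It was 0 without a filter (1933 at an unadjusted p under 0.05), 0 with the distal convoluted and connecting tubule mean (522) and 0 with the principal cell mean (1927). It was 36 without the library of each diet with the most Umod. With single libraries left out it ranged from 0 to 49: 0 without high-salt library 4 (908 genes by unadjusted p) and 0 without normal-salt library 3 (1224 genes), 1 without high-salt library 3 or normal-salt library 6, 5 without high-salt library 2 and 49 without normal-salt library 1. The column numbers 2, 3 and 6 occur in both diets, but the labels tie them to no shared animal or batch, so they were not taken as pairs. The deviations of same-numbered libraries correlated across genes at 0.21, 0.29 and 0.00201. High-salt libraries 2 and 3 each correlated best with the normal-salt library of their number. High-salt library 4 correlated best with normal-salt library 2 (0.28), and high-salt library 6 with normal-salt library 1 (0.30). These values do not settle whether the numbers mark pairs. With the replicate block by column number, limma called 38 genes, Emilin2 was 1.26, Emilin1 0.28 and Mmrn2 -0.00491, and both Emilin1 and Mmrn2 stayed uncalled. High-salt library 4 and normal-salt library 1 share their number with no library of the other diet. The diet differences of the block fit therefore rest on the libraries numbered 2, 3 and 6 alone. The last 2 covariates, the joint leaving-out and the block were chosen after seeing the data.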
